A study of Mus musculus with 24 samples.

Results

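T3 and T2FO B cells of C57BL/6/J (B6) mice were compared on 4 arrays, 2 of each subset, out of 24 arrays in the series. The members were all arrays whose titles name the B6 T3 or the B6 T2FO subset. The cells were splenic B cells of female mice aged 7 weeks, untreated and of unmodified genotype as far as the labels say. Spleens of 8 mice were pooled, cells bearing CD3ε or CD11b were removed on magnetic beads, and 6 subsets, transitional T1, T2FO, T3 and T2MZ and mature FO and MZ, were sorted with antibodies to IgM, CD21/35, CD24, B220, CD93 and CD23. A second, independent experiment gave the second array of each subset, and the same 6 subsets were taken from NOD mice, which enter only an alternative fit. Each array is thus 1 pool of animals, and the replicate number was taken to mark the experiment. The arrays were Affymetrix whole-genome mouse expression arrays, hybridized with RNA amplified in 2 cycles from an oligo(dT) primer.

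Transitional B cells are the recent bone marrow emigrants of the spleen and carry CD93, which is lost on maturity. T1 cells lack CD23. T2 cells have gained it and pass into the follicular (FO) or the marginal zone (MZ) pool. T3 cells also carry CD93 and CD23 but have low surface IgM, and in the field they are linked to anergy, a state in which chronic antigen binding leaves a B cell poorly responsive, rather than to a step on the way to follicular maturity. The comparison asks whether their transcripts differed from those of T2FO cells beyond the differences between pools and arrays.

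The values were log2 signals centred separately for each probe set, so a value is a distance from the middle of that probe set over the series, and no level can be compared between genes. Values are given for replicates 1 and 2 in that order, and a within-number difference is T3 minus T2FO among the arrays of the same replicate number. Each of 18193 genes was represented by 1 probe set, chosen on B6 arrays other than those compared. The pool, or what went with it, was the larger source of variation. Across genes the correlation was 0.79 between T2FO and T3 of replicate 1 and 0.733 between T2FO and T3 of replicate 2, against -0.0033 between the T2FO replicates and 0.0402 between the T3 replicates. The root mean square difference was 0.775 between the T2FO replicates and 0.759 between the T3 replicates, but 0.369 and 0.39 between T3 and T2FO within numbers 1 and 2. The 5′ beta-actin control, whose signal drops when amplified RNA is short, was -1.36 and -4.04 in T2FO and -1.02 and -3.27 in T3. The 5′ Gapdh control was -1.0 and -2.59 in T2FO and -0.66 and -1.23 in T3. Both 5′ controls were far lower in replicate 2, and within each number both were somewhat higher in T3, most for Gapdh in number 2. The 3′ Gapdh control was -0.0005 and -1.38 in T2FO and -0.07 and -0.47 in T3, so in number 2 it was higher in T3 too. The 3′ beta-actin control was -0.26 and -0.10 in T2FO and -0.27 and -0.15 in T3. Their part in the results was not tested.

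No gene passed the test between T3 and T2FO. In limma's moderated test over the 12 B6 arrays, 0 of 18193 genes (0%) had an adjusted p under 0.05, the smallest adjusted p was 1, and 219 genes (1.2%) had an unadjusted p under 0.05, of which 153 (0.841%) were higher and 66 (0.363%) lower in T3. With the replicate number as a block over the 8 arrays of T1, T2FO, T3 and T2MZ, again 0 genes (0%) passed, but the smallest adjusted p was 0.0776, shared by 19 genes. In that blocked fit 1463 genes (8.04%) had an unadjusted p under 0.05, of which 807 (4.44%) were higher and 656 (3.61%) lower in T3. What follows therefore describes sizes and directions in each pool, and no gene named is called changed.

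The within-number differences of the pools shared little across the whole array. Their correlation across genes was 0.0837, a description, since genes are not replicates. Both differences were above 0 in 28.5% of genes, both below 0 in 21.2%, and of opposite sign in 50.2%. Each list count given below is to be read beside these shares. Past 1 log2 unit, 25 genes (0.137%) were more than 1 log2 unit higher in T3 in both numbers, 20 genes (0.11%) were more than 1 lower in both, and 1 gene (0.0055%) was past 1 in opposite directions. These counts depend on the values used: after a further quantile normalization they were 11, 6 and 3, and with the mean of a gene's probe sets 13 genes were above and 8 below. That gene was Klrd1, a natural killer cell receptor subunit, at -0.06 and 3.30 in T2FO and 0.95 and 0.78 in T3, named after its values were seen.

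**Figure D1:**
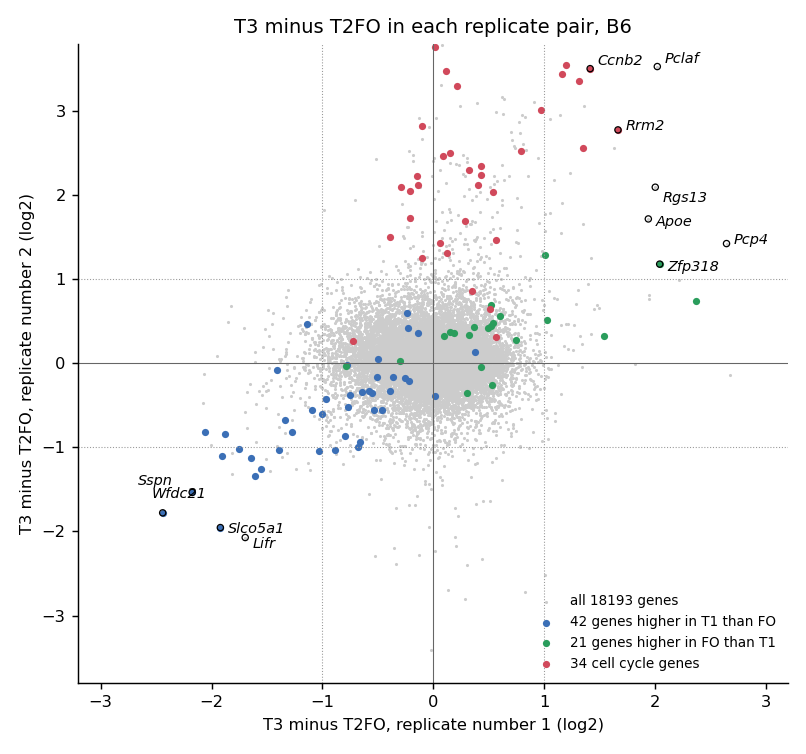
T3 minus T2FO in log2 units for 18193 genes, with replicate number 1 on the horizontal and number 2 on the vertical axis; dotted lines mark 1 and -1, and coloured points are the gene groups given in the key. Most genes form a round cloud, genes higher in T1 than FO extend to the lower left, and cell cycle genes lie high on the vertical axis with smaller values on the horizontal.

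The sort markers were examined first. Cd93, the marker of transitional cells, was 2.72 and 2.77 in T2FO and 2.22 and 2.83 in T3, against 0.17 and -0.56 in FO. Both subsets thus stood with T1, at 3.14 and 2.98, and well above the mature subsets. Fcer2a, which encodes CD23, was -0.60 and -0.31 in T2FO and -0.70 and 0.20 in T3, above T1 at -1.29 and -1.16 and below FO at 0.74 and 2.65. For neither marker did T3 and T2FO separate, with differences of -0.22 (SE 0.22) and 0.21 (SE 0.20) in the blocked fit. The Ighm probe set was -1.99 and 1.12 in T2FO and -2.40 and 0.27 in T3, lower in T3 by 0.42 and 0.86 within numbers, but the replicates of each subset lay over 2 units apart and the 11 Ighm probe sets disagreed, with differences from -0.64 to 0.75. Cr2, encoding CD21, was -0.97 and -0.66 in T2FO and -0.66 and -0.02 in T3. Cd24a differed by -0.15 (SE 0.18, blocked). Ptprc, whose B220 form was stained, was -1.05 and -0.30 in T2FO and -1.42 and -1.38 in T3. Of the general B cell genes, Cd79a, Cd79b, Ms4a1 and Pax5 were measured, and 2 of the 4 were lower in T3 in both numbers. No brightness can be had from centred values, so whether a marker is present or absent cannot be read from them.

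Genes lower in T3 were mostly genes with a higher level in T1 than in FO cells. Of the 20 genes more than 1 lower in both numbers, 19 had a higher mean in T1 than in FO, against 56.5% of all genes. Of the 25 genes more than 1 higher in both numbers, 16 also had a higher mean in T1 than in FO. The T2MZ mean lay above the T2FO mean in 1 of the 20 lower genes and in 24 of the 25 higher genes. In nearly all of them T2MZ thus stood on the same side of T2FO as T3, and both comparisons share the T2FO arrays. By the rule for named genes, the 10 lowest were Slco5a1, Wfdc21, Lifr, Sspn, Atp1b1, Gh, Steap4, Slamf9, Tsga10 and Myadm.

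Slco5a1, a member of the organic anion transporter family, was 2.40 and 2.98 in T2FO and 0.48 and 1.03 in T3. Both T3 arrays lay below both T2FO arrays, and the difference was -1.94 (SE 0.20 with the block, 0.35 without; adjusted p 0.0776 with the block and 1 without). Wfdc21, of the whey acidic protein domain family, was 2.91 and 2.52 in T2FO and 0.47 and 0.74 in T3. In T1 it stood at 4.17 and 2.67 and in FO at -0.70 and -0.91, so T3 lay between T2FO and FO. Sspn, which encodes the membrane protein sarcospan, was 2.15 and 2.50 in T2FO and -0.02 and 0.97 in T3, against 0.01 and -0.35 in FO, so that T3 lay near FO in replicate 1 and about midway between T2FO and FO in replicate 2.

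Lifr, the receptor for leukaemia inhibitory factor, was 0.26 and 1.72 in T2FO and -1.43 and -0.35 in T3. Its T3 arrays lay below the FO arrays too, which were at 0.92 and 0.00. Atp1b1, the beta subunit of the sodium pump, was -0.07 and 0.07 in T2FO and -1.67 and -1.28 in T3, the latter near FO at -1.62 and -1.97. Slamf9, a receptor of the SLAM family, was 2.18 and 2.08 in T2FO and 0.62 and 0.83 in T3. Its difference was -1.40 (SE 0.19 with the block and 0.21 without), and its unadjusted p in the fit without the block, 0.000177 by limma, was the smallest of all genes.

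The probe sets named Gh, for growth hormone, a gene that lies beside Cd79b on chromosome 11, were 2.41 and 1.49 in T2FO and 0.59 and 0.17 in T3 for the set used. All 4 Gh probe sets were lower in T3 in both numbers, with differences from -1.60 to -0.72. Steap4, a metalloreductase, was 2.12 and 3.38 in T2FO and 0.64 and 2.10 in T3, so the groups all but touched, and its other probe set did not share the direction. Tsga10 was 0.90 and 1.55 in T2FO and -0.34 and 0.29 in T3. Myadm, a membrane protein first described in myeloid differentiation, was 1.70 and 0.76 in T2FO and 0.19 and -0.38 in T3. Adjusted p in the blocked fit lay between 0.0776 and 0.164 for these 10 genes. All probe sets of Slco5a1, Sspn and Lifr were lower in both numbers, but the smallest differences were -0.41, -0.18 and -0.34. Of 5 Atp1b1 probe sets 4 were lower in both numbers, and the highest difference was 0.12. Low values were not particular to T3: in T2MZ cells Slco5a1 was -0.24 and 0.61, Wfdc21 -0.02 and 0.02 and Atp1b1 -2.70 and -1.90, each below T3 of the same number.

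**Figure D2:**
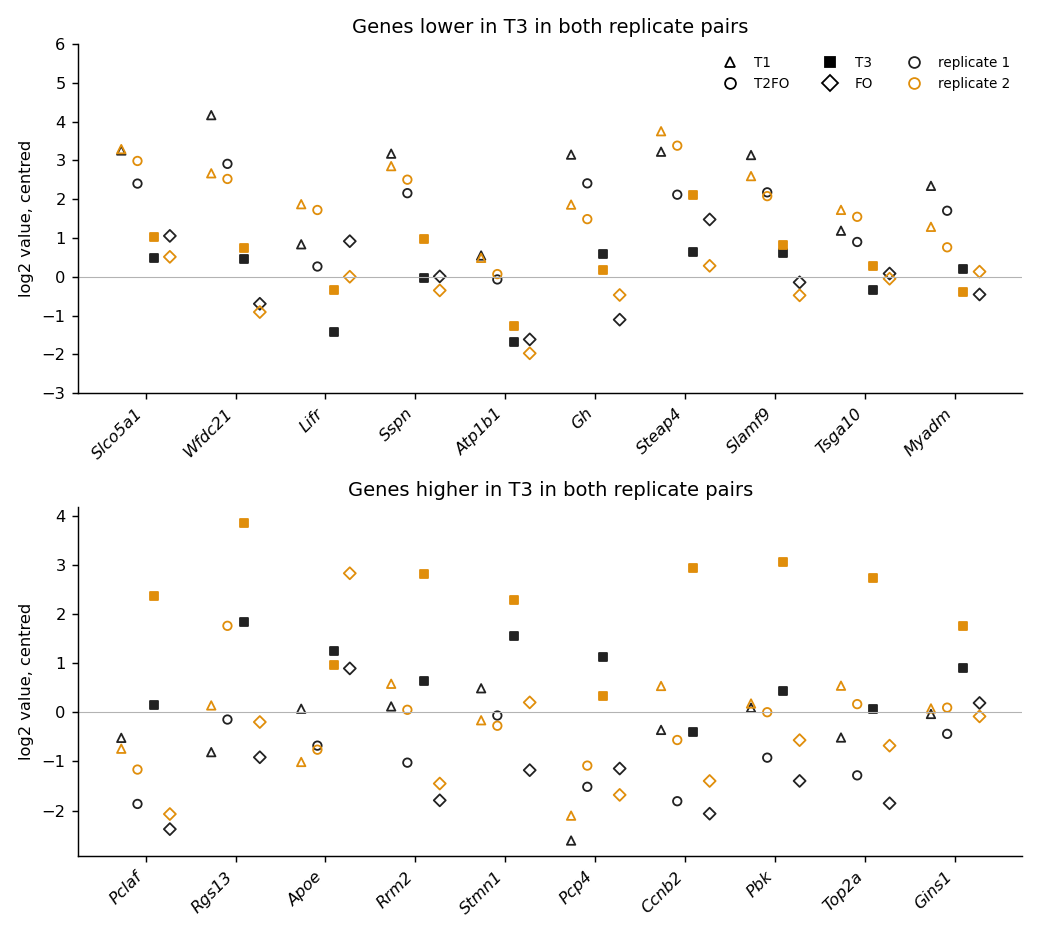
Centred log2 values (vertical axis) of the 10 genes lower (top) and the 10 higher (bottom) in T3 by the naming rule, in T1, T2FO, T3 (filled) and FO cells, with replicate 1 in black and replicate 2 in orange. In the top panel the T3 points lie below T2FO of the same colour and mostly toward FO; in the bottom panel replicate 2 of T3 stands highest for the cell division genes.

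The direction was then examined in genes chosen by the difference between FO and T1, which no T2FO or T3 array enters. Those arrays did enter the estimate of spread behind each call, so genes with close T2FO and T3 replicates were favoured. How far this raised the shares below was not tested. In the same limma fit, 42 genes were higher in T1 than in FO (0.231%) and 21 higher in FO (0.115%). Of the 42 genes higher in T1, 35 (83.3%) were lower in T3 than in T2FO in both numbers, against 21.2% of all genes, and 1 was higher in both. Both T3 arrays lay below both T2FO arrays in 33 of the 42, against 6.06% of all genes. The median difference was -0.72, with -0.79 in number 1 and -0.55 in number 2, where the median over all genes was 0.01 and 0.03. Of the 21 genes higher in FO, 16 (76.2%) were higher in T3 in both numbers, against 28.5% of all genes, with a median difference of 0.46, 0.52 in number 1 and 0.37 in number 2.

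Among T1, T2FO, T3 and FO, the list medians ran in that order in both replicates. For the T1-high list they were 1.74 and 1.49 in T1, 0.87 and 1.05 in T2FO, 0.18 and 0.50 in T3 and -0.54 and -0.83 in FO. For the FO-high list they were -1.42 and -1.19 in T1, -0.86 and -0.68 in T2FO, -0.26 and -0.19 in T3 and 0.54 and 0.62 in FO. The ends of this order were fixed by how the genes were chosen. T2FO and T3 entered the choice through the spread between their replicates, not through their difference. The other subsets also lay away from T1. The T1-high medians were -0.16 and -0.12 in T2MZ and -0.20 and -0.24 in MZ, and the FO-high medians 0.015 and 0.010 in T2MZ and -0.019 and 0.23 in MZ, so T2MZ, likewise a transitional subset, lay nearer to FO than T3 did. The 2 T3 medians did not overlap the 2 T2FO medians in either list.

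Among the genes higher in T1 with a known role, Hivep3, a zinc finger transcription factor, was 2.28 and 2.57 in T2FO and 0.64 and 1.45 in T3. Ldhb, a lactate dehydrogenase subunit, was 1.45 and 2.26 in T2FO and 0.06 and 1.23 in T3. Nuak1, an AMPK-related kinase, was 1.87 and 1.50 in T2FO and 0.11 and 0.48 in T3. All of these were below T2FO in both numbers. Il2ra, the alpha chain of the interleukin-2 receptor, differed by -0.78 in number 1 but by -0.02 in number 2. Mx1, an interferon-induced antiviral gene, had opposite signs, at -1.14 and 0.47. Cd93 belongs to the same list and, as given above, did not follow it.

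Among the genes higher in FO, Zfp318 stood out by its role, since the protein lets the immunoglobulin heavy chain transcript run on to IgD. It was -0.47 and 0.36 in T2FO and 1.57 and 1.54 in T3, a difference of 1.61 (SE 0.24 with the block, adjusted p 0.0801). Its values in T1 and FO are those of a gene of the mature follicular cell, with means of -1.20 and 2.02. All 5 Zfp318 probe sets were higher in T3 in both numbers, with differences from 0.25 to 1.61. No probe set carried Ighd as its only gene. Gimap4, a GTPase of lymphocytes, was -1.06 and -1.25 in T2FO and -0.05 and 0.04 in T3. Stat4, a transducer of interleukin-12 signals, was -1.60 and -0.76 in T2FO and -0.58 and -0.25 in T3. In T2MZ, Zfp318 stood at 0.56 and 1.55, Gimap4 at 0.28 and 0.01 and Stat4 at 0.14 and 0.88. Each lay above T2FO of the same number, so the higher values of these genes were not particular to T3. Hip1, Lrrk2, Myo1f, St6galnac3 and Fbxo4 did not follow the list in both numbers.

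**Figure D3:**
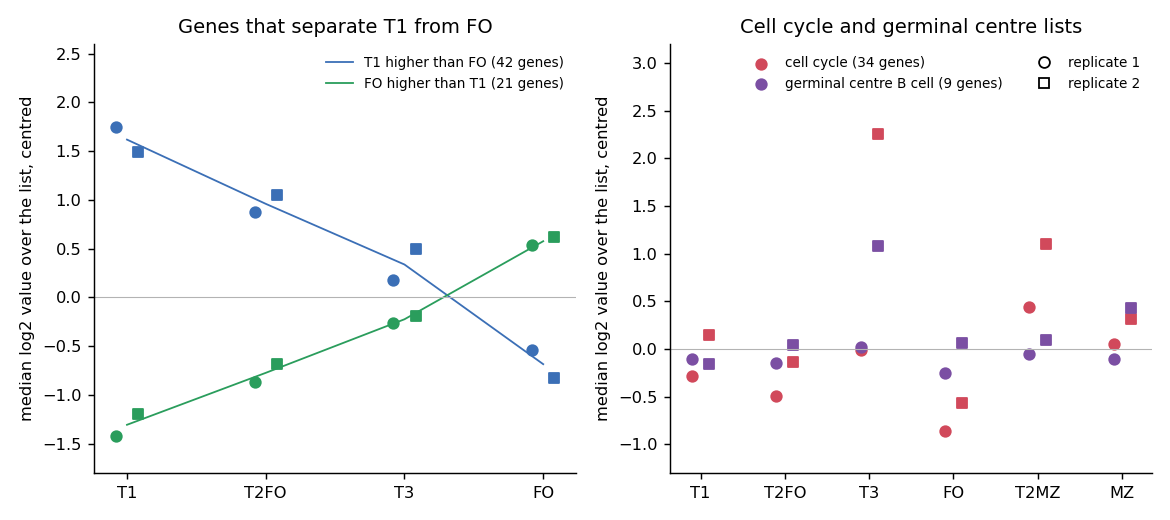
Median centred log2 value (vertical axis) per array, circles for replicate 1 and squares for replicate 2. Left, genes higher in T1 (blue) or FO (green), with lines through the mean of the 2 replicates, where T3 lies between T2FO and FO; right, the cell cycle and germinal centre lists, where replicate 2 of T3 stands at 2.26 and 1.08.

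Genes of cell division were higher in T3, mainly in the second pool. Dividing cells express genes for DNA replication in S phase and for the spindle and chromosome segregation in G2 and M. Of 34 measured genes of the cell cycle list, 25 were higher in T3 in both numbers and 0 were lower in both. Over all genes the shares were 28.5% and 21.2%. In the list 6 were above 1 in both (0.137% of all genes), and 0 passed the adjusted threshold. In the blocked fit 26 of the 34 had an unadjusted p under 0.05 with T3 higher, against 4.44% of all genes. The median difference was 0.30 in number 1 and 2.23 in number 2. Per array, the list median was -0.50 and -0.14 in T2FO and -0.01 and 2.26 in T3, so T3 replicate 2 stood apart from the other 3 arrays compared. T2MZ cells, at 0.44 and 1.10, also lay above T2FO in both numbers, and above T3 in replicate 1; these differences share the T2FO arrays. The 5′ Gapdh control given above was also higher in T3 than in T2FO, more so in number 2, where the 3′ Gapdh control was higher too. In bulk RNA, more cells in division and more such RNA per cell cannot be told apart.

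Rrm2, the small subunit of ribonucleotide reductase, was -1.02 and 0.05 in T2FO and 0.64 and 2.83 in T3. All 3 of its probe sets were higher in both numbers, but in number 1 their differences ran from 0.003 to 1.66. Ccnb2, a mitotic cyclin, was -1.81 and -0.56 in T2FO and -0.40 and 2.95 in T3, so that its lower T3 array lay above both T2FO arrays by little. Top2a, the topoisomerase that untangles chromosomes, was -1.28 and 0.17 in T2FO and 0.07 and 2.74 in T3, and the groups overlapped. Its 3 probe sets did not share the direction, with differences from -0.14 to 1.96. Cdk1, the mitotic kinase, was -1.21 and -1.11 in T2FO and 0.10 and 2.25 in T3. Mki67, the Ki-67 antigen of cycling cells, was -0.95 and -0.03 in T2FO and -0.17 and 2.49 in T3.

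Among the 10 highest genes by the naming rule, 4 outside that list are known from dividing cells. Pclaf, which binds the replication clamp PCNA, was -1.87 and -1.16 in T2FO and 0.15 and 2.37 in T3, with differences of 2.02 and 3.53. Its 3 probe sets gave mean differences from 0.07 to 2.77, and 2 of them were higher in both numbers. Pbk, a mitotic kinase, differed by 1.36 and 3.06. Gins1, a subunit of the replicative helicase complex, was -0.44 and 0.10 in T2FO and 0.91 and 1.76 in T3. Its 2 probe sets gave mean differences of 0.21 and 1.50. Stmn1, a microtubule-destabilizing protein of dividing cells, was -0.06 and -0.27 in T2FO and 1.57 and 2.29 in T3, a difference of 2.10 (SE 0.28 with the block, adjusted p 0.0776). Both T3 arrays were above both T2FO arrays for each of these 4 genes, as in 10.4% of all genes. The 4 were named for their differences on these same arrays, so this is no separate support. In T2MZ, Pclaf was 1.06 and 0.80 and Stmn1 1.55 and 1.26, also above both T2FO arrays.

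The cell cycle genes were not equally shared between the pools. Kif20a, Kif11 and Bub1, all of mitosis, differed by 0.01, 0.12 and 0.21 in number 1 and by 3.77, 3.48 and 3.30 in number 2. Members of the replicative helicase, Mcm3, Mcm5 and Mcm7, differed by -0.39, -0.29 and -0.14 in number 1 and by 1.50, 2.10 and 2.12 in number 2. E2f1, a transcription factor of the G1 to S step, differed by -0.73 and 0.26. Of 13 regulators of the G1 phase 4 were higher and 2 lower in both numbers. The kinase gene Cdk4 differed by 0.36 and 0.93 and the inhibitor Cdkn2c by 0.28 and 1.42. Ccnd2, a D-type cyclin, differed by 0.24 and 0.66 and Ccnd3 by -0.95 and 0.01. With T3 replicate 1 left out of the blocked fit, 28 of the 34 cell cycle genes had an adjusted p under 0.05 and were higher (1.5% of all genes); with T3 replicate 2 left out, 5 did (0.192%), namely Birc5, Ccnb2, Cdk1, Rrm2 and Top2a. Each of these fits rests on a single T3 array, assumed to vary like the others.

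**Figure D4:**
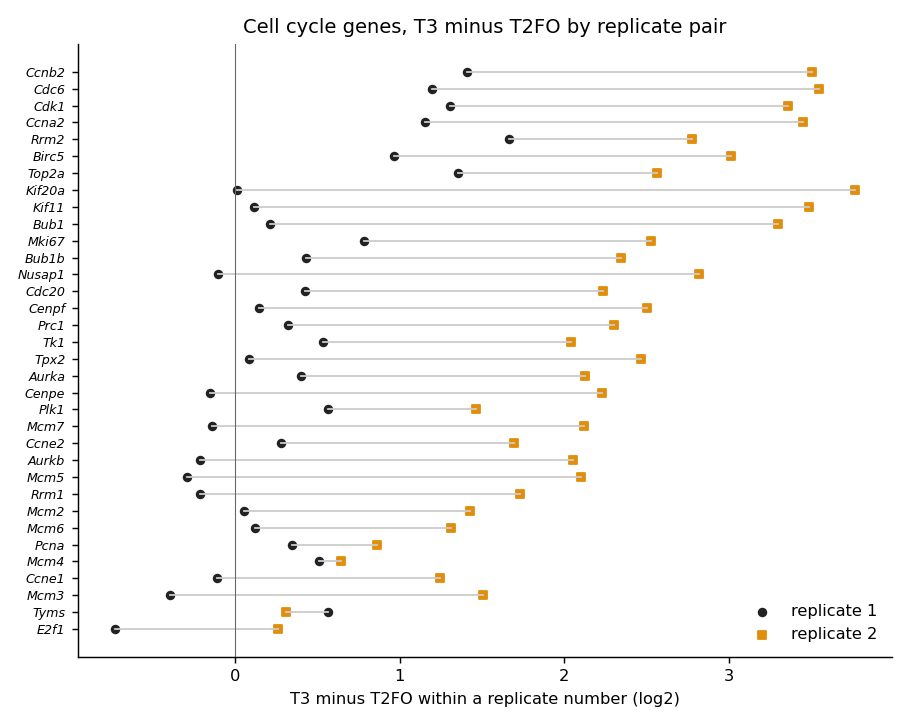
T3 minus T2FO (horizontal axis, log2) for the 34 measured cell cycle genes, circles for replicate number 1 and squares for number 2, in order of the mean difference. Nearly all squares lie well to the right of the circles, and 9 genes have opposite signs.

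Promoters of 3 of these genes are shown because genes of the G2 and M phases are known to share a CCAAT box, bound by the factor NF-Y, and the CHR element TTTGAA near their start. Each is the 250 bases before the start from RefSeq (GRCm38.p6), 5′ to 3′ on the gene's strand, with CCAAT and TTTGAA, on either strand, in capitals. Ccnb2 lies at chr9:70421555-70421804, Cdk1 at chr10:69352913-69353162 and Top2a at chr11:99024190-99024439, all on the minus strand.
Ccnb2: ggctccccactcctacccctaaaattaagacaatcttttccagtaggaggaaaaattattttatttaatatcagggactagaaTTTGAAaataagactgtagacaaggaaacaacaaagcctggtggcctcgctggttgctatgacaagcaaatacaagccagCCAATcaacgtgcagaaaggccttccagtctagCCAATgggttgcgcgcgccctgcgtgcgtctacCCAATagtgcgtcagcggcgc
Cdk1: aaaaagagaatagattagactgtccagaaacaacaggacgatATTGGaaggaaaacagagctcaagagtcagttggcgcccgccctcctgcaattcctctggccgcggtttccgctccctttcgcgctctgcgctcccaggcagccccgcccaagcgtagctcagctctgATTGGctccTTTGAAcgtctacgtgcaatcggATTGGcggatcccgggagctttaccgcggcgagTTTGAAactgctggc
Top2a: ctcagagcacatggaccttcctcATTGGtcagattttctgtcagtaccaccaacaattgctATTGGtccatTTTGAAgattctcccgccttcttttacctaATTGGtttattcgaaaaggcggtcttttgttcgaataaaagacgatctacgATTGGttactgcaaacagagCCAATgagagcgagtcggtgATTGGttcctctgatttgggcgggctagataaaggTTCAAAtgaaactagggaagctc

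The Ccnb2 window holds 3 CCAAT boxes and 1 TTTGAA, the Cdk1 window 3 and 2, and the Top2a window 6 and 2. Matches were marked anywhere in the window. The TTTGAA of Ccnb2 lies upstream of all 3 CCAAT boxes, and 1 of the 2 in Top2a is likewise far from the start. Whether a marked TTTGAA is a CHR element was not tested. Of the cell cycle list, 28 genes matched 30 windows, of which 23 (76.7%) held CCAAT, 8 (26.7%) TTTGAA and 8 (26.7%) both. Over all 32851 windows the shares were 33.8%, 16% and 5.55%. Among the 25 genes above 1 in both numbers, 18 matched 22 windows, with shares of 31.8%, 36.4% and 18.2%, and of the 20 genes below -1, 16 matched 23 windows, with 26.1%, 8.7% and 0%. These shares describe letters in a window and not binding.

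Genes typical of germinal centre B cells were also high in T3 replicate 2. This list was chosen after values had been seen and gets no test of its own. Of its 9 measured genes 7 were higher in T3 in both numbers and 1 was lower, against 28.5% and 21.2% of all genes. The list median was -0.14 and 0.04 in T2FO and 0.02 and 1.08 in T3. Gcsam, a signalling adaptor of germinal centre cells, was -0.28 and -0.08 in T2FO and -0.14 and 1.76 in T3. S1pr2, the receptor that keeps cells in the germinal centre, was -0.04 and -0.34 in T2FO and 0.13 and 0.83 in T3. Mef2b, a transcription factor of those cells, was 0.08 and -0.15 in T2FO and 0.22 and 1.08 in T3. Bcl6, their master regulator, differed by -0.05 and -0.52. In 4 of the 9 genes both T3 arrays lay above both T2FO arrays, S1pr2 and Mef2b among them, against 10.4% of all genes. The list median stood out in T3 replicate 2, as that of the cell cycle genes did, and the part of these cells in the cell cycle result was not tested.

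Rgs13, a regulator of G protein signalling known from germinal centres, behaved otherwise. It was -0.14 and 1.77 in T2FO and 1.86 and 3.86 in T3, with like differences of 2.00 and 2.10 in both pools (SE 0.25 with the block, adjusted p 0.0776; SE 1.21 without). T1 stood at -0.81 and 0.14 and FO at -0.91 and -0.19, below T3, as were the T2MZ arrays of the same number at -1.14 and 0.81. Apoe, apolipoprotein E, was -0.68 and -0.76 in T2FO and 1.26 and 0.96 in T3, with FO at 0.90 and 2.84. With T2MZ at 1.49 and -0.08 and MZ at 1.55 and 3.59, high Apoe values were not particular to T3. C1qb, a macrophage gene taken up below, was likewise highest in replicate 2 of FO and MZ, at 0.83 and 2.62. The part of macrophages in the Apoe difference was not tested. Pcp4, a calmodulin-binding peptide, was -1.52 and -1.08 in T2FO and 1.13 and 0.34 in T3, a difference of 2.03 (SE 0.29 with the block, adjusted p 0.0776). Pcp4 was low in both the T1 and the FO arrays, at -2.61 and -2.10 and at -1.14 and -1.68, but in T2MZ it stood at 0.54 and 0.33, near T3 in replicate 2.

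The genes linked to anergy did not set T3 apart as a group. Of 18 measured genes of that list 8 were higher in both numbers, 3 lower and 7 of opposite sign. Over all genes the shares were 28.5%, 21.2% and 50.2%. In the list 0 passed the adjusted threshold, and the median difference was 0.20 against 0.02 over all genes. Nr4a1, an orphan nuclear receptor induced by antigen receptor signals, was -0.29 and 0.54 in T2FO and -0.01 and 0.66 in T3, a difference of 0.20 (SE 0.18, blocked). Cd5, a negative regulator of antigen receptor signals, had opposite signs at -0.40 and 0.66. Egr1, an immediate early transcription factor, was 0.37 and 2.13 in T2FO and -0.11 and 0.99 in T3. Ndrg1, linked to anergy in T cells, was 0.95 and 1.31 in T2FO and 2.16 and 1.78 in T3, and the groups did not overlap. Its difference was 0.84 (SE 0.28, adjusted p 0.454, blocked), and its 5 probe sets gave differences from 0.02 to 0.84. Rgs1 differed by 0.56 and 0.40, Nfatc1 by 0.38 and 0.31, and Egr2 by 0.16 and -1.04. Cblb, a ubiquitin ligase that raises the threshold of activation, differed by -0.36 and -0.07.

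Antigen receptor signalling genes showed no common direction. Of 26 measured members 3 were higher and 7 lower in both numbers, and 16 had opposite signs (28.5%, 21.2% and 50.2% of all genes). Syk, the kinase that couples the receptor to its pathway, was -1.79 and 0.07 in T2FO and -2.95 and -0.40 in T3. Nfatc2, a calcium-dependent transcription factor, was -1.19 and -0.57 in T2FO and -0.29 and 0.20 in T3, a difference of 0.83 (SE 0.15, adjusted p 0.164, blocked). Only 1 of the 6 Nfatc2 probe sets was higher in both numbers, with differences from -0.21 to 0.83. Vav3, a guanine nucleotide exchange factor, differed by 0.93 and 0.27. Of 22 inhibitors of the receptor, 8 were higher and 6 lower in both numbers. Pag1, an adaptor for the inhibitory kinase Csk, differed by -0.63 and -0.55, and the phosphatase gene Ptprj by -0.49 and -0.73. Each has 4 probe sets, of which 2 were lower in both numbers. Their differences ran from -0.59 to 0.35 for Pag1 and from -0.61 to -0.11 for Ptprj. Among the inhibitory receptors Fcgr2b differed by 0.19 and 0.65 and Cd22 by -0.22 and 0.79. Of 19 immediate early genes 4 were higher and 5 lower, with the phosphatase gene Dusp5 at -0.73 and -1.10.

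Antigen presentation genes were more often higher than lower. Of 13 measured members of the MHC class II and costimulation list 8 were higher and 2 lower in both numbers (28.5% and 21.2% of all genes). In the blocked fit 6 had an unadjusted p under 0.05 with T3 higher, against 4.44% of all genes, with 0 past the adjusted threshold. H2-DMb2, which encodes a chain of the peptide-loading protein H2-M, was -0.99 and -2.44 in T2FO and -0.35 and -1.56 in T3. Its 3 probe sets gave differences from 0.11 to 0.76. H2-Ab1, a chain of I-A, differed by 0.36 and 1.14 and H2-Aa, its partner, by 0.25 and 1.06. H2-Oa differed by 0.42 and 0.43. Ciita, the transactivator of these genes, went the other way, at -0.41 and -0.76. The replicates of each subset differed by more than the subsets did for H2-DMb2, H2-Aa and H2-Ab1.

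BAFF receptor and survival genes were more often lower than higher. Of 23 measured, 1 was higher and 9 were lower in both numbers, and 13 had opposite signs (28.5%, 21.2% and 50.2% of all genes). The median difference was -0.17, with -0.35 in number 1 but -0.01 in number 2, so the lean lay mainly in number 1. The higher gene was Bcl2l11, which encodes the death inducer Bim, at -1.14 and 0.04 in T2FO and -0.21 and 0.48 in T3, and all 5 of its probe sets shared the direction. Birc3, an inhibitor of apoptosis, differed by -0.61 and -0.45, Mcl1 by -0.48 and -0.29 and Bcl2l1 by -0.16 and -0.34. Tnfrsf13c, the BAFF receptor, differed by -0.29 and -0.08.

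So were B lineage transcription factors, with 13 of 24 lower and 5 higher in both numbers. For this list and those that follow, the shares over all genes were 21.2% lower and 28.5% higher. Ets1 differed by -0.75 and -0.33, Spi1 by -0.47 and -0.24 and Pax5 by -0.37 and -0.22, while Zfp318, given above, had the largest difference of the 24. Of 18 marginal zone genes 7 were higher and 1 lower in both numbers. Ebi3, a cytokine subunit, was -1.13 and -0.67 in T2FO and -0.16 and 0.60 in T3, and the groups did not overlap. In the follicular list 4 of 16 were higher and 4 lower, with Fcmr, the receptor for IgM Fc, at 0.37 and 0.64 and the integrin gene Itga4 at -1.36 and -0.40. The 5 Itga4 probe sets gave differences from -0.88 to -0.007. Immature B cell and recombination genes numbered 3 higher and 8 lower of 19, and Myb, a factor of precursors, differed by 0.71 and 0.62. In the remaining lists of B cell function, counts higher and lower in both numbers were 6 and 5 of 22 for migration, where Ccr6 differed by 0.68 and 0.37, and 4 and 4 of 15 for Toll-like receptors, where Tlr6 differed by -0.49 and -0.38 and Tlr7 by 0.35 and 0.50.

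A few genes of stress, growth and secretion stood out from lists that did not. Hspa1b and Hspa1a, the inducible HSP70 genes, differed by 1.16 and 1.91 and by 0.95 and 1.68, yet only 4 of 14 heat shock and stress genes were higher in both numbers and the median difference was 0.11. Sdc1, which encodes syndecan-1, a surface proteoglycan known from plasma cells, was 0.02 and 0.28 in T2FO and 1.96 and 1.10 in T3, and all 4 of its probe sets shared the direction. The secretory list it belongs to had 5 higher and 4 lower of 15, and Jchain and Prdm1 differed by -2.07 and -0.13 and by 0.02 and 0.38. Npm1, a nucleolar chaperone, differed by 0.54 and 1.06, in a growth list with 5 higher and 2 lower of 22. Of 19 interferon response genes 3 were higher, 0 lower and 16 of opposite sign.

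Markers of other cells differed between single arrays, and a few also by subset. The median over 10 natural killer cell genes was -0.08 and 0.68 in T2FO and 0.22 and 0.06 in T3, and 6 genes had opposite signs. In T2FO replicate 2, Nkg7, Klra8 and Gzma stood at 2.12, 2.34 and 1.87, and the T cell genes Thy1, Cd28 and Bcl11b at 2.08, 2.15 and 2.20. The same array held Igha, the IgA heavy chain, at 4.0, against -0.01 in T2FO replicate 1 and -0.03 and 0.59 in T3. The T cell list median was 0.05 and 0.24 in T2FO and 0.17 and -0.22 in T3. Over 15 myeloid genes the medians were 0.03 and -0.06 in T2FO and 0.15 and 0.13 in T3, with 6 higher and 1 lower in both numbers, and C1qa, C1qb and C1qc, the chains of complement C1q made by macrophages, differed by 0.40 and 0.41, by 0.30 and 0.43 and by 0.29 and 0.27. Thy1 and the dendritic cell gene Itgax were lower in both T3 arrays than in both T2FO arrays, with within-number differences of -0.36 and -2.19 and of -0.33 and -0.55. Neutrophil, dendritic, erythroid and platelet, and stromal and endothelial lists had medians between -0.17 and 0.32 in the 4 arrays. The part of these cells in the differences above was not tested.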

How the data were processed

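Whole spleen B cell subsets were profiled on 24 arrays, and 4 were compared here. Per the submitters' processing notes the authors used RMA, of a version that these notes do not give. The deposited values were log2 signals, centred per probe set (no probe set's median over the arrays was farther from 0 than 5e-07); the base of the logarithm was taken as 2 from RMA. Probe sets with 1 gene in the platform annotation numbered 34945 of 45101, 932 had several genes, 9160 none and 64 were controls; each gene took the probe set of largest SD over the 8 B6 arrays of T1, FO, T2MZ and MZ.

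limma 3.58.1 (R 4.3.3) fitted a mean per group on the 12 B6 arrays, with Benjamini-Hochberg adjustment over 18193 genes and a threshold of 0.05. The replicate number was taken to pair the arrays because the design text describes a repeated experiment and the deviations of T1, T2FO, T3 and T2MZ correlated by number at 0.778 to 0.899; the blocked fit over these 8 arrays is therefore given beside the other. With 2 pools per subset, p-values without the block measure the spread between the 2 arrays of each subset (root mean square residual SD 0.524). That spread holds the pools and what went with them. It therefore counts a difference that T3 and T2FO of the same number were taken to share. P-values of the blocked fit measure what is left between arrays after a common difference between the replicate numbers is removed (0.219). Neither covers further pools. The fits were run on simulated data with known shifts in T3, where only a mean estimate near each shift was required. Nothing was required of the number of genes called, so the power of the fits was not judged. There FO and MZ shared the pool difference of the other subsets, whereas in the data they ran against it.

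Named genes were the 10 each way with the largest smaller within-number difference of 1 sign, the sort markers with Nr4a1 and Cd5, and up to 2 members of each of 26 lists with the largest such difference; further genes came from these lists or were named after their values were seen. The members and lists were chosen with earlier results of these data known, and 2 lists were added later. Promoters were searched over 250 bases before the start, in RefSeq windows. NOD arrays entered only an alternative fit, since earlier results gave a smaller spread between NOD replicates than between B6 ones. In that limma fit over all 24 arrays the smallest adjusted p was 0.108.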

Additional observations from a re-analysis of the deposited data

How the results depend on the processing

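No setting over the full set of arrays called a gene: 0 genes passed with the block, with all 24 arrays, with the 4 arrays alone, with a random block, with the 5′ actin signal as a covariate, with array weights, with other probe set rules or with other scalings. Their counts at an unadjusted p under 0.05 ran from 77 of 9097 genes (those of larger spread) to 1639 with the replicate block on the mean of all probe sets, against 1463 with the block alone. Leaving out 1 array gave 0 to 330 genes called and 0 to 46 list members called. The 330 genes (272 higher, 58 lower) came from the blocked fit without T3 replicate 1, the 165 genes (35 higher, 130 lower) from the blocked fit without T3 replicate 2, and 1 gene from the unblocked fit without T3 replicate 1; without either T2FO array the count was 0. In those blocked fits 46 and 11 list members were called. The arrays of FO and MZ ran against the other subsets by replicate number (correlations of deviations from -0.667 to -0.398); with their numbers crossed the block called 0 genes. The replicate block changed no other call.

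The median difference of the genes higher in T1 moved to -0.53 when probe sets were averaged and ran from -0.78 to -0.58 with an array left out; that of the genes higher in FO ran from 0.35 to 0.54. Genes above 1 in both numbers were 13 with the mean of probe sets and 11 after quantile normalization, those below -1 were 8 and 6, and genes past 1 in opposite directions were 3 after quantile normalization; the cause was not tested. Of 1795 values of 75 named genes under alternatives, 1710 kept direction and side of the threshold, 45 passed it, all in blocked fits without a T3 array, and 40 in 20 genes changed sign. None of the 20 genes named for the size of their differences did. Cd93 was 0.058 with the mean over probe sets, with and without the block. With an array left out the differences ran from -1.12 to 0.058 for Birc3, -0.48 to 0.19 for Cd24a, -0.62 to 0.88 for Cd5, -0.62 to 0.19 for Cd8a, -0.53 to 0.080 for Cd93, -0.12 to 0.20 for Cxcl10 and -1.89 to 0.064 for Dusp5. They ran from -1.70 to 0.071 for Egr1, -0.023 to 0.52 for Elane, -0.24 to 0.66 for Fcer2a, -0.040 to 0.89 for H2-Oa, -1.67 to 0.34 for Hba-a2, -2.19 to 0.92 for Ighm and -0.077 to 0.61 for Itga2b. For the others they ran from -2.25 to 0.48 for Itga4, -0.56 to 0.056 for Klre1, -0.21 to 0.62 for Nr4a1, -0.97 to 0.12 for Pecam1, -0.60 to 1.56 for Sgk1 and -2.09 to 0.46 for Syk. In the blocked fits the changed signs were Cd24a at 0.047 and Cxcl10 at -0.096 without T3 replicate 1, Fcer2a at -0.11 and Cd5 at -0.33 without T3 replicate 2, and Cd5 at -0.11 and Cxcl10 at -0.090 without T2FO replicate 2.

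With 2 arrays a subset and centred values, signal over background is unknown and small differences cannot be resolved. The T3 arrays disagree on cell division genes, and that result rests mainly on replicate 2.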

Other observations

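Several genes past 1 log2 unit in both replicate numbers belong to none of the groups described and were named after their values were seen. Havcr1, which encodes TIM-1, a surface receptor known from regulatory B cells, differed between T3 and T2FO by 1.23 and 2.26 (adjusted p 0.0776 by limma with the block). Its values were -1.11 and -0.31 in T2FO and 0.12 and 1.96 in T3, without overlap. Ahr, the aryl hydrocarbon receptor, was -0.91 and 1.04 in T2FO and 0.10 and 2.62 in T3, and its mean was highest in MZ cells at 3.01. Rgs10, a second regulator of G protein signalling, was -1.35 and -1.17 in T2FO and -0.20 and 0.38 in T3, with means of 1.94 in MZ and -2.25 in FO. Tmem154, a membrane protein, differed by 1.01 and 1.78.

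Of the lower genes, Adm, which encodes the vasoactive peptide adrenomedullin, was 1.28 and 2.83 in T2FO and -0.08 and 1.71 in T3. Diras2, a small GTPase, was 1.24 and 1.06 in T2FO and -0.58 and 0.00 in T3. Cdkl1, a kinase of the cyclin-dependent kinase-like family, was 1.05 and 1.19 in T2FO and -0.27 and 0.12 in T3. Adjusted p with the block was 0.0776 for Adm and Cdkl1 and 0.0818 for Diras2. Hspa1b, Abi2 and Mindy3 also passed 1 in both numbers, Hspa1b and Abi2 higher and Mindy3 lower in T3.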
